A study of Mus musculus with 18 samples.

Results

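The RNA of 6 genes of the imprinted *Snrpn*-*Ube3a* region was followed through 18 mouse tumors: *A330076H08Rik*, *A230057D06Rik*, *Snrpn*, *Ube3a*, *Ndn*, and *Snhg14*. The genes were chosen by their expression in these same tumors, with earlier results known. Which contrast led to the choice is not stated, so the ATRX KD against ATRX CT differences of the members, and how these differ between hosts, are treated as used. Their rows were read by symbol from the deposited matrix, and all 6 members were present among its 20878 genes. The tumors grew from K7M2 cells, a mouse osteosarcoma line of Balb/c origin, injected under the skin of female mice 6 to 8 weeks old. Cells had been transduced by lentivirus with an shRNA against *Atrx* (ATRX KD) or with a control shRNA (ATRX CT), so both arms carry an shRNA and each arm is 1 transduced population. Hosts were immunocompetent Balb/c mice (4 ATRX CT and 4 ATRX KD tumors) or immunodeficient NSG mice, a NOD strain with the Prkdc scid and Il2rg mutations (5 ATRX CT and 5 ATRX KD tumors). Expression was read as FPKM, which is fragments scaled by transcript length and library size and allows levels to be compared between genes. Differences were taken on the log2(FPKM + 1) scale, where a change at low FPKM reads smaller than it is.

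In this region, an imprinting center at *Snrpn* keeps one set of genes active on the paternal chromosome only. *Ube3a*, a ubiquitin ligase, is read from both copies in most cells, whereas in neurons its paternal copy is silenced while the long antisense RNA *Snhg14* runs across it. *Snrpn* encodes the spliceosomal protein SmN, and *Ndn* encodes necdin, a growth-restraining protein of the MAGE family. Loss of the paternal genes underlies Prader-Willi syndrome, and loss of maternal *UBE3A* underlies Angelman syndrome. *A330076H08Rik* and *A230057D06Rik* are annotated long noncoding RNAs, and the first carries the synonym *Mirh1* in RefSeq. The parental allele of origin was not measured here.

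In the deposited mm10 annotation, neither Rik transcript lies between *Snrpn* and *Ube3a*. Both lie on the far side of *Snrpn*, toward *Ndn*. On chromosome 7, *Ube3a* runs on the plus strand from 59228750 to 59306727. *Snhg14* is drawn on the minus strand as a short model of 3 exons, from 59969577 to 59974431, and *Snrpn* follows from 59982502 to 60140219 on the same strand. After a gap of 1.57 Mb, *A230057D06Rik* covers 61705850 to 61927574 on the minus strand in 9 exons that join to 2004 nt. *A330076H08Rik*, on the same strand, lies 16.3 kb further, from 61943901 to 61982303, with 4 exons and 1836 nt. *Ndn* is a gene of 1 exon on the plus strand from 62348277 to 62349928, another 366 kb away. *Ube3a* and *A230057D06Rik* are thus separated by 2.40 Mb. The newer RefSeq set for GRCm38.p6, in which *Ndn* has the same coordinates, extends *Snhg14* from 59272737 to 60450177, so that it overlaps *Ube3a* in antisense. The short *Snhg14* model of the deposited annotation does not reach *Ube3a*.

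**Figure D1:**
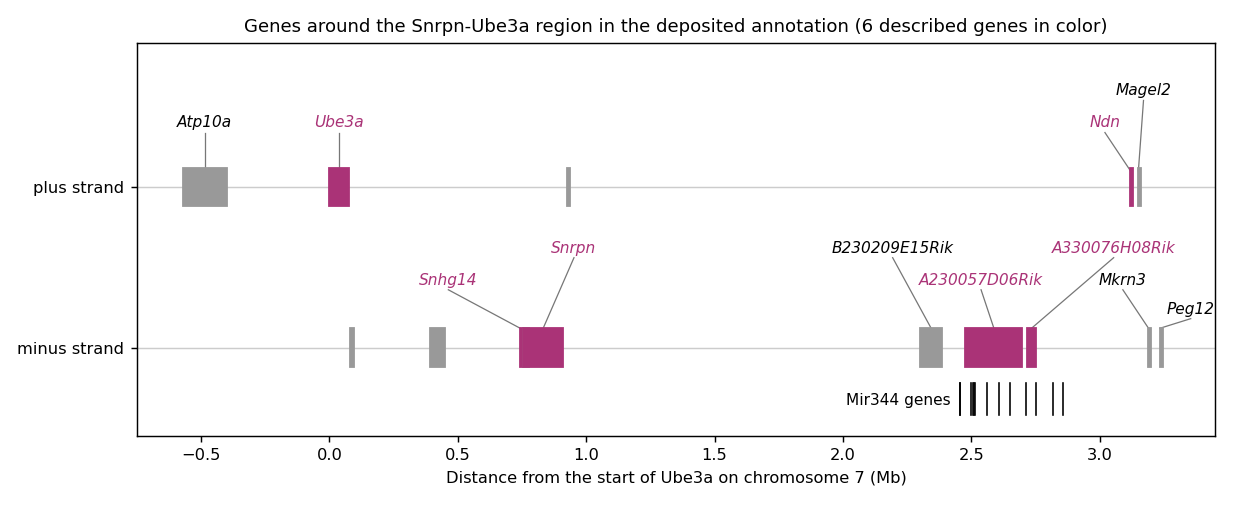
Genes on each strand of chromosome 7 as distance in Mb from the start of *Ube3a* in the deposited annotation. Boxes span each gene (a minimum width is drawn for short genes), the 6 described genes are in color, other genes are gray, and ticks mark *Mir344* genes. The 2 colored boxes near 2.5 to 2.75 Mb are *A230057D06Rik* and *A330076H08Rik*, which lie between *Snrpn* and *Ndn*.

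The promoters of the Rik pair are shown because both were low in ATRX KD tumors, and that of *Snrpn* for contrast. Sequences are from RefSeq on GRCm38.p6, a C57BL/6J reference and not the Balb/c genome of the cells. Each Rik window runs from 250 bases before to 50 bases after the start, on the minus strand, at chr7:61982306-61982605 and chr7:61927525-61927824. For *Snrpn*, the 250 bases upstream of one of its starts are given, at chr7:60005200-60005449. Capitals mark CG dinucleotides and the CCAAT box, read on either strand as CCAAT or ATTGG.
A330076H08Rik: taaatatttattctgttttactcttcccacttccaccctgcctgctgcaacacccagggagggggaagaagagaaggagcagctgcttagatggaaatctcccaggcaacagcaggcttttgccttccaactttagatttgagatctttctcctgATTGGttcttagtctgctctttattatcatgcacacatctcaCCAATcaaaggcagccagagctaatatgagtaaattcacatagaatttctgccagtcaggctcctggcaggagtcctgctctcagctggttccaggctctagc
A230057D06Rik: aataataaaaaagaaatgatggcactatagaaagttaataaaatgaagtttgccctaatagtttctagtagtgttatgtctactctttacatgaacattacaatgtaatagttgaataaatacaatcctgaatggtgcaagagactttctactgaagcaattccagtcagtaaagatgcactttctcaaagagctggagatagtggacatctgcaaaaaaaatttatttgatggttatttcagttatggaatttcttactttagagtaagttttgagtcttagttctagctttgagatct
Snrpn: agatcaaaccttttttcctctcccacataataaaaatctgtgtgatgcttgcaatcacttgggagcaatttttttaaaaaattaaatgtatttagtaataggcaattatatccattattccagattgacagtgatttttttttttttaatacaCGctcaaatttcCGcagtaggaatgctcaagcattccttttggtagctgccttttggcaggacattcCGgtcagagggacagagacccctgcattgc
Neither Rik window held a CG dinucleotide, which was the case for 5.43% of 32851 promoter windows in the table, where the median was 7. The stretch printed for *Snrpn* held 3. The full window of 300 bases around that start held 7, the most of the 4 *Snrpn* starts in the table, whose other windows held 4, 3, and 2, that of *Ndn* 11, and that of *Ube3a* 29. The *A330076H08Rik* window held a CCAAT box on each strand, and 37.4% of all windows held at least 1. The TATA box letters TATAAA were in neither Rik window and in 13.6% of all windows. A match or its lack describes letters in these windows only.

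The Rik pair also spans a cluster of microRNA genes. Of the 13 *Mir344* hairpins in this region, 7 lie within *A230057D06Rik*, and *Mir344g* overlaps the start of *A330076H08Rik*. The RefSeq start of *A330076H08Rik*, base 61982355, is also the first base of miR-344g-5p. The mature forms are printed from RefSeq with the seed (bases 2 to 8) in capitals, to show which of them share a seed.
miR-344g-5p: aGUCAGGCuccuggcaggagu
miR-344-5p: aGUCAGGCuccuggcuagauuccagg
miR-344b-5p: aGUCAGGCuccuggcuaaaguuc
miR-344c-5p: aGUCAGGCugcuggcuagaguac
miR-344-3p: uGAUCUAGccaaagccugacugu
miR-344b-3p: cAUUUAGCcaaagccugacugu
miR-344e-3p: gAUAUAACcaaagccugacuau
The seed GUCAGGC is common to the 5p forms above and to 6 of the 19 mature names in the cluster, which carry 11 seeds in all. The miRNAs themselves were not measured in these libraries. The deposited annotation holds the *Mir344* genes, but none of them is in the matrix, and the methods state that miRNA genes were left out.

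Estimated depth was between 15050000 and 25450000 fragments per library (median 20275000), and whole reads could not be recovered. *Atrx*, the target of the shRNA, was lower on average in ATRX KD tumors of both hosts without passing the threshold (log2 difference −0.34, standard error 0.36, adjusted p = 0.999 in limma in Balb/c mice, and −0.74, standard error 0.22, adjusted p = 0.0610 in limma in NSG mice). The groups overlapped in both hosts. These are RNA values of whole tumors, and the paper reports from western blots that ATRX protein was extinguished in the K7M2 cell line. After group means were subtracted, *Atrx* followed the trend of each library along transcript length that is described with *Ube3a* (r = 0.93 over 18 tumors). Of the osteoblast markers, *Runx2* (3.54 to 11.1 FPKM), *Col1a1*, *Spp1*, and *Sparc* were expressed in every tumor, whereas *Sp7* (at most 0.195 FPKM), *Ibsp* (at most 0.0292 FPKM), and *Bglap* (at most 0.431 FPKM) were at or near 0, and *Alpl* did not exceed 0.662 FPKM. In these bulk tumors, fewer cells of a type and less RNA per cell cannot be told apart.

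*A330076H08Rik* showed the widest gap between ATRX KD and ATRX CT tumors of the 6 transcripts. In Balb/c mice, its level was 0.701, 0.822, 2.62, and 3.05 FPKM in the ATRX CT tumors of mice 41, 43, 44, and 45. In the ATRX KD tumors of mice 56, 58, 59, and 60, it was 0, 0.264, 0.125, and 0.0799 FPKM. Every ATRX CT tumor was thus above every ATRX KD tumor, and the ATRX CT tumors themselves split into a lower and a higher pair. In NSG mice, the ATRX CT tumors of mice 1 to 5 stood at 5.30, 1.95, 4.38, 3.73, and 3.35 FPKM. The ATRX KD tumors of mice 26 to 30 stood at 0.239, 0.306, 0.105, 0.222, and 0.0635 FPKM. Again the groups did not overlap. Mean FPKM was 1.8 ± 1.21 in ATRX CT against 0.117 ± 0.110 in ATRX KD tumors of Balb/c mice (SD, n = 4 each). In NSG mice, it was 3.74 ± 1.25 against 0.187 ± 0.10 (SD, n = 5 each). In log2 (FPKM + 1), the difference was −1.22 (standard error 0.28) in Balb/c mice and −1.96 (standard error 0.17) in NSG mice. Depth limits the low side, since 3 of the 9 ATRX KD tumors did not exceed a floor of 3 fragments, which lies between 0.0703 and 0.119 FPKM for this transcript.

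*A230057D06Rik*, its neighbor, showed the same order at a lower level. In Balb/c hosts, its level was 0.423, 0.490, 1.52, and 1.31 FPKM in ATRX CT tumors (mice 41, 43, 44, and 45) and 0.126, 0.169, 0.135, and 0.182 FPKM in ATRX KD tumors (mice 56, 58, 59, and 60). In NSG mice, it was at 2.49, 0.906, 2.27, 1.92, and 1.32 FPKM in ATRX CT tumors (mice 1 to 5). The ATRX KD tumors of mice 26 to 30 were at 0.201, 0.168, 0.160, 0.168, and 0.201 FPKM. The groups were apart in both hosts, and the ATRX KD values lay in a narrow band just above the floor of 3 fragments (0.0639 to 0.108 FPKM). The log2 difference was −0.70 (standard error 0.19) in Balb/c and −1.20 (standard error 0.15) in NSG mice, and mean FPKM was 6.13 and 9.93 times higher in ATRX CT tumors.

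Since these contrasts may have led to the choice of the 6 transcripts, their values are a description, with no p, and nothing is drawn from them. The lowest of the 9 ATRX CT tumors stood at 0.701 FPKM for *A330076H08Rik*, against 0.306 FPKM in the highest of the 9 ATRX KD tumors. For *A230057D06Rik*, these values were 0.423 and 0.201 FPKM. Among all 14803 genes above the filter on low values (a mean of 0.1 FPKM), all 9 ATRX KD tumors lay below all 9 ATRX CT tumors for 10 genes (0.0676%), and the 2 hosts each showed such a separation for 23 genes (0.155%). Over all genes, 0.464% were called in NSG mice (a fold change of 2 or more with an adjusted p under 0.05 in limma), 0.293% in the lower direction, and 0.0068% were called in Balb/c mice. The number of members past these limits, 2 in NSG and 0 in Balb/c mice, may have been fixed by the choice and is no test of them. The decrease was smaller in Balb/c than in NSG mice, by 0.74 for *A330076H08Rik* and 0.50 for *A230057D06Rik* on the log2 scale. With a pseudocount of 0.1 in place of 1, the log2 difference of *A330076H08Rik* was −3.02 in Balb/c and −3.75 in NSG mice, and that of *A230057D06Rik* was −1.86 and −2.67. With libraries weighted by quality, the differences in Balb/c mice shrank to −0.85 for *A330076H08Rik* and −0.51 for *A230057D06Rik*. In NSG mice, the smallest differences over the alternatives that kept all tumors were −1.945 and −1.203.

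**Figure D2:**
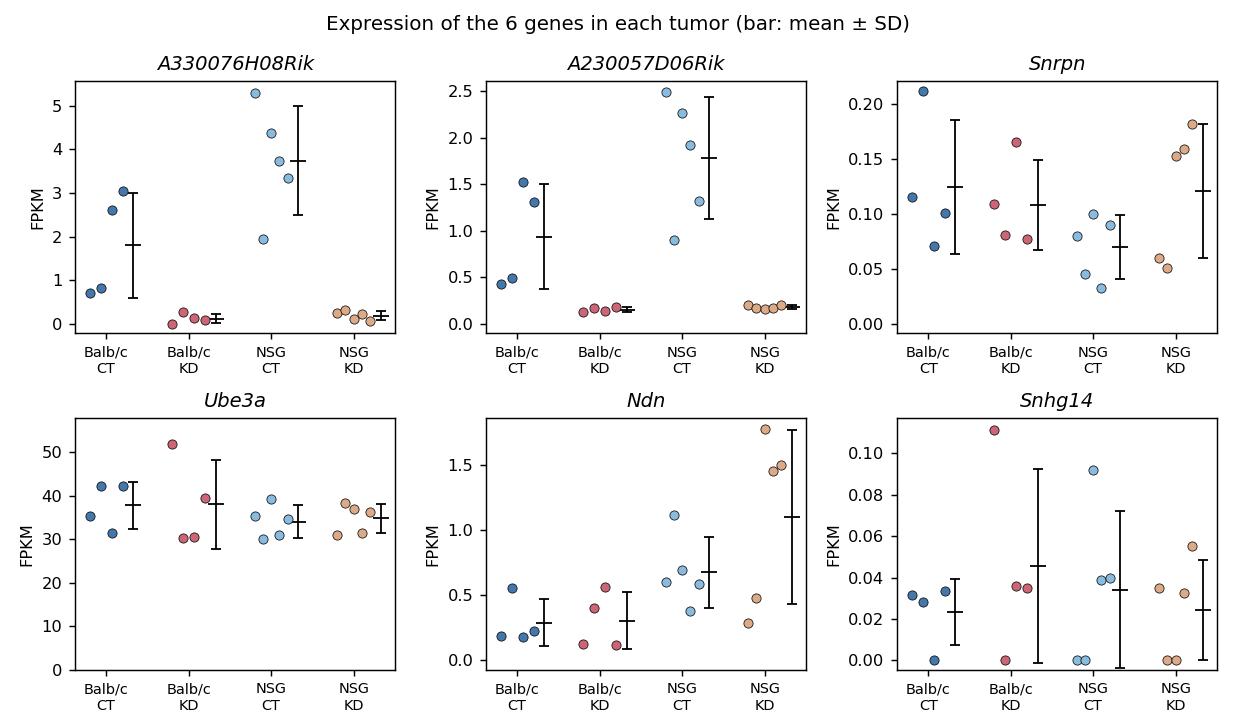
FPKM of each of the 6 transcripts in each tumor (points), by host and shRNA, with the mean and SD of the group beside them; the axes differ between panels, and all are linear. *A330076H08Rik* and *A230057D06Rik* are apart between ATRX CT and ATRX KD in both hosts, whereas the groups of *Snrpn*, *Ube3a*, *Ndn*, and *Snhg14* overlap.

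The Rik pair varied together from tumor to tumor. In the 9 ATRX CT tumors, *A330076H08Rik* was between 1.66 and 2.54 times the level of *A230057D06Rik* in FPKM (median 1.95). After subtraction of the group means, Pearson's r of their log2 values over the 18 tumors was 0.93 (Spearman's rho 0.84), and 0.88 without the 2 tumors farthest from the median. This r is a description in which both transcripts of a tumor come from the same library, and most of the spread is in ATRX CT tumors. Within the 9 ATRX CT tumors, r of the same values was 0.96. *Mkrn3*, a paternally expressed gene of a ring finger protein beyond *Ndn*, had an r of 0.69 with *A330076H08Rik* and 0.73 with *A230057D06Rik*. *Ndn* and *Snrpn*, which lie on either side of the pair, had r of −0.31 and −0.31 with *A330076H08Rik*, and *Ube3a* had −0.02. Without the 2 tumors farthest from the median, these became −0.29, −0.53, and −0.23, and those of *Mkrn3* with the Rik pair 0.61 and 0.56.

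**Figure D3:**
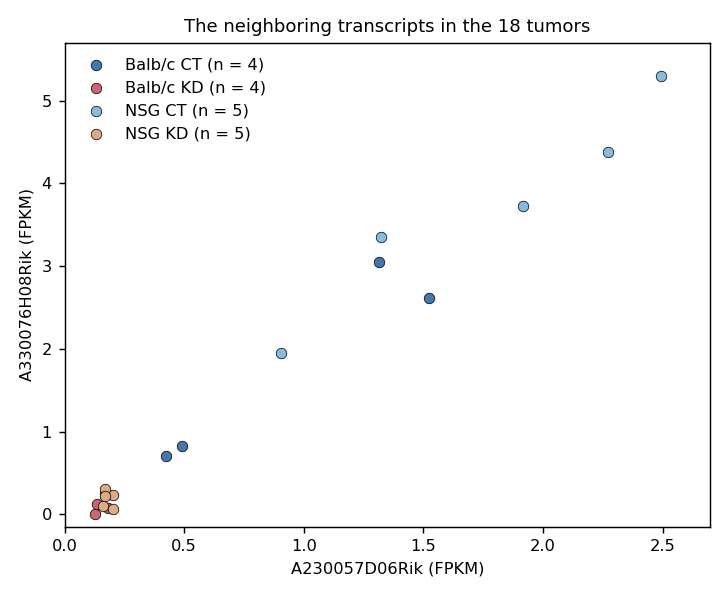
Level of *A330076H08Rik* against that of *A230057D06Rik* in FPKM, 1 point per tumor, colored by group. ATRX CT tumors of both hosts spread along a line with a ratio between 1.66 and 2.54, and all ATRX KD tumors lie in the corner near 0.

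Among genes averaging 1 FPKM or more, the 3 most like *A330076H08Rik* after group means were subtracted were *Cep70*, a centrosomal protein gene (r = 0.85), *Slc25a36*, a mitochondrial carrier gene (r = 0.84), and *Zfp141*, a zinc finger gene (r = 0.78). *Cep70* (99243468 to 99300404) and *Slc25a36* (97077011 to 97111041) both lie on chromosome 9, and *Zfp141* (42473386 to 42505753) lies on chromosome 7. For *A230057D06Rik*, they were *A330076H08Rik* itself (r = 0.93), *Zfp141* (r = 0.80), and *Ppfia4* on chromosome 1 (r = 0.79). These are the top values among 12180 and 12181 candidates over 18 tumors. The mean levels of 10 marker lists (9 of other cell types and that of osteoblasts) overlapped between ATRX KD and ATRX CT tumors in both hosts. Single markers moved with the arm in NSG mice, where limma's p before adjustment was under 0.05 for 5 of 5 endothelial markers, all higher in ATRX KD tumors, and for 5 of 5 macrophage markers, of which *Csf1r* was higher and the others lower. Over all genes tested in this comparison, 26.3% had such a p. *Pecam1*, an endothelial adhesion gene, rose with an adjusted p of 0.0280 in limma (log2 difference 0.93, standard error 0.21), under a fold change of 2. In Balb/c mice, 2 of 5 neuronal markers tested, 1 of 4 adipocyte, 1 of 5 endothelial, and 1 of 7 skeletal muscle markers had an unadjusted p under 0.05 in limma. Over all genes tested there, 4.14% had such a p. *Fabp4* was higher (log2 difference 0.99, limma adjusted p = 0.351) and *Map2* lower (−0.82, limma adjusted p = 0.474) in ATRX KD tumors of Balb/c mice. The mean of the endothelial list was between 1.65 and 2.86 in ATRX CT and between 2.45 and 2.91 in ATRX KD tumors of NSG mice, and that of the macrophage list between 7.50 and 8.16 and between 7.22 and 7.63, in log2 (FPKM + 1). Their part in the Rik values was not tested. Over the 18 tumors, after group means were subtracted, their mean levels had r between −0.28 (fibroblast and pericyte) and 0.49 (keratinocyte) with *A330076H08Rik*. Of the neuronal markers, *Rbfox3* (at most 0.0342 FPKM), *Snap25* (at most 0.0294 FPKM), *Elavl4* (at most 0.0690 FPKM), and *Nefm* (at most 0.0288 FPKM) were at or near 0. *Nefl* did not exceed 0.323 FPKM. The others on the list were above 0 in every tumor, with *Tubb3* at 5.32 to 23.5 FPKM and *Stmn2* at 0.153 to 27.9 FPKM. *Map2* was at 0.834 to 3.78 FPKM and *Syn1* at 0.319 to 2.31 FPKM.

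*Snrpn* was close to the limit of detection in all groups. In Balb/c mice, it was at 0.116, 0.212, 0.0704, and 0.101 FPKM in ATRX CT tumors and at 0.109, 0.0804, 0.166, and 0.0772 FPKM in ATRX KD tumors. In NSG mice, it was at 0.0798, 0.0454, 0.0997, 0.0324, and 0.0901 FPKM in ATRX CT tumors and at 0.0595, 0.0505, 0.153, 0.159, and 0.182 FPKM in ATRX KD tumors. The groups overlapped in both hosts, and for the *Snrpn* entry alone, 9 of 18 tumors were above the floor of 3 fragments. The log2 difference between ATRX KD and ATRX CT tumors was −0.02 (standard error 0.07) in Balb/c mice, and in NSG mice *Snrpn* fell under the filter on low values. *Snurf*, the upstream reading frame of the same transcription unit, moved with it (r = 0.94), but their transcripts share exons and the authors' counting could divide fragments between them. In the deposited annotation, the *Snurf* model has 10 exons and 1971 nt, and the *Snrpn* models have 10 or 11 exons and 1970 to 2076 nt. With both entries summed, the log2 difference was −0.026 in Balb/c mice, and in NSG mice the sum passed the filter on low values. Of the 75 nt windows of *Snrpn* transcripts in GENCODE, 22.6% also occur in *Snurf* or in other annotated genes.

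*Snhg14* could not be followed at this depth. In 16 of 18 tumors it did not exceed the 3-fragment floor, with a maximum of 0.111 FPKM in the ATRX KD tumor of mouse 56. *C230091D08Rik*, a separate entry in the deposited annotation 1196 bases beyond *Ube3a* that newer RefSeq sets list under *Snhg14*, was above the floor in 1 tumor (0.0522 FPKM). With no fold given at these levels, a difference between groups was not detectable.

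*Ube3a* was the most highly expressed of the 6, by FPKM. Balb/c tumors had 35.4, 42.2, 31.4, and 42.3 FPKM in the ATRX CT arm and 52.0, 30.3, 30.6, and 39.4 FPKM in the ATRX KD arm. In NSG mice, it was at 35.3, 30.1, 39.3, 30.9, and 34.8 FPKM in ATRX CT tumors and at 31.0, 38.4, 36.9, 31.6, and 36.4 FPKM in ATRX KD tumors. All groups overlapped, with log2 differences of −0.02 (standard error 0.19) in Balb/c and 0.03 (standard error 0.10) in NSG mice. Long transcripts read higher in some libraries than in others, with slopes between −0.15 and 0.21 log2 units per doubling of transcript length, and *Ube3a* moved with this slope after group means were subtracted (r = 0.92 over 18 tumors). The r with the slope was 0.0061 for *A330076H08Rik* and 0.0026 for *A230057D06Rik*. The 3 genes most like *Ube3a* were *Rps6kb1*, an S6 kinase gene (r = 0.98), *Usp31*, a deubiquitinase gene (r = 0.97), and *Chd3*, a chromatin remodeler gene (r = 0.97). The library kit keeps strand, but whether the counting used it is not given in the sources used here, so reads of *Ube3a* and of its antisense transcript cannot be told apart. In GENCODE, 23.0% of the 75 nt windows of *Ube3a* transcripts also occur in other genes, *Snhg14* among them.

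**Figure D4:**
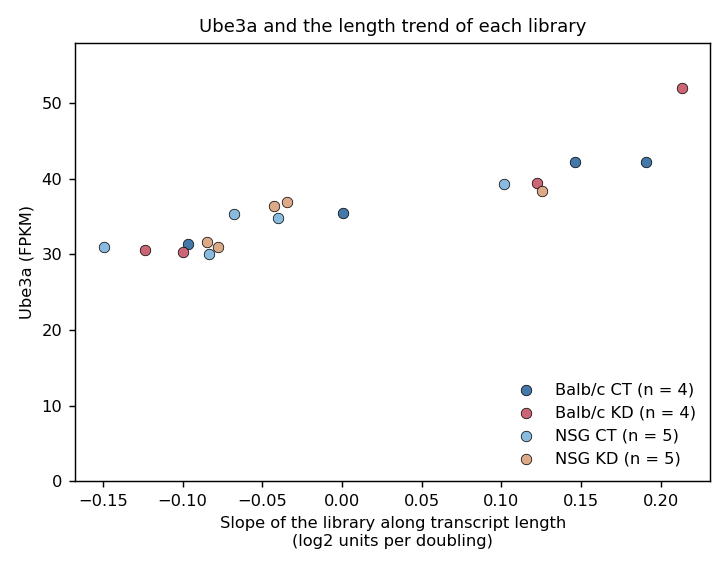
*Ube3a* in FPKM against the slope of each library along transcript length, 1 point per tumor, colored by group. *Ube3a* rises with the slope across all groups, from 30.1 to 35.3 FPKM at slopes below −0.05 to 52.0 FPKM at the highest slope of 0.21.

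*Ndn* varied widely among ATRX KD tumors of NSG mice, with an SD of 0.50 in log2 (FPKM + 1). It was at 0.291 and 0.483 FPKM in mice 26 and 27 and at 1.78, 1.46, and 1.50 FPKM in mice 28, 29, and 30. The ATRX CT tumors of NSG mice were at 0.603, 1.12, 0.696, 0.384, and 0.588 FPKM. In Balb/c mice, ATRX CT tumors were at 0.190, 0.560, 0.178, and 0.229 FPKM and ATRX KD tumors at 0.130, 0.405, 0.564, and 0.118 FPKM. The groups overlapped in both hosts, with log2 differences of 0.01 (standard error 0.14) in Balb/c and 0.27 (standard error 0.21) in NSG mice. The genes most like *Ndn* were *Mfap5*, a microfibril protein gene (r = 0.89), *Rexo4*, an exonuclease gene (r = 0.89), and *Rarres2*, which encodes the adipokine chemerin (r = 0.88). The mean of the 5 adipocyte markers moved with *Ndn* (r = 0.78 over 18 tumors after group means were subtracted). This mean was between 1.23 and 3.94 in ATRX KD and between 1.49 and 1.85 in ATRX CT tumors of NSG mice, and between 1.42 and 2.51 in Balb/c tumors, in log2 (FPKM + 1). Its part in the *Ndn* values was not tested. *Ndn* and *Snrpn* had an r of 0.74, and the fibroblast and pericyte markers had an r of 0.77 with *Snrpn*.

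By mean FPKM over all 18 tumors, which pools groups with unlike means, the order of the 6 members was *Ube3a* (36.0), *A330076H08Rik* (1.52), *A230057D06Rik* (0.787), *Ndn* (0.627), *Snrpn* (0.105), and *Snhg14* (0.0317). In ATRX CT tumors of both hosts, mean FPKM of the Rik pair was above that of *Ndn*. In single ATRX CT tumors, *A230057D06Rik* was below *Ndn* in mouse 43 (0.490 against 0.560 FPKM) and in mouse 2 (0.906 against 1.12 FPKM). In ATRX KD tumors, mean FPKM was higher for *Ndn* (0.304 in Balb/c and 1.1 in NSG mice) than for *A330076H08Rik* (0.117 and 0.187) and *A230057D06Rik* (0.153 and 0.180). From *A330076H08Rik* to *Ndn*, the ranges over tumors overlapped, and so did those of *Snrpn* and *Snhg14*. Of the 6, 5 had a mean of at least 0.1 FPKM and 2 a mean of at least 1 FPKM.

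Host differences of the members were tested as well. A contrast between hosts is not known to have led to their choice, but it may have. The p-values of members between hosts, here and under other settings, thus give no independent support. With *Snrpn* under the filter in ATRX CT tumors and *Snhg14* in both arms, limma tested 4 members among ATRX CT and 5 among ATRX KD tumors, and exact permutation tests covered all 6. None of those tested by limma passed its threshold, where 1.43% of genes were called among ATRX CT tumors and 1.39% among ATRX KD tumors. Before adjustment, limma's p was under 0.05 for 3 of the 4 members among ATRX CT tumors and for 1 of the 5 among ATRX KD tumors. Over all genes tested, 19.3% and 16.4% had such a p. In ATRX CT tumors, *Ndn* was lower in Balb/c than in NSG mice by 0.38 on the log2 scale (log2 difference −0.38, standard error 0.13, adjusted p = 0.167 in limma). The two-sided exact permutation p was 0.0397, and 0.229 after adjustment over the 12 host comparisons of members. In ATRX KD tumors, the difference was −0.64 (limma adjusted p = 0.201, standard error 0.24), and the exact permutation p was 0.0714. *A330076H08Rik* differed by −0.82 in ATRX CT tumors (standard error 0.30, adjusted p = 0.180 in limma), with an exact permutation p of 0.0714. *A230057D06Rik* differed by −0.53 (standard error 0.23, adjusted p = 0.235 in limma), with an exact permutation p of 0.0873. In ATRX KD tumors, the Rik pair differed between hosts by −0.09 and −0.03 (adjusted p = 0.663 and 0.806 in limma). *Ube3a* differed by 0.14 in ATRX CT and 0.09 in ATRX KD tumors (adjusted p = 0.524 and 0.805 in limma). For *Snrpn*, the exact permutation p was 0.0952 in ATRX CT and 0.722 in ATRX KD tumors, and for *Snhg14*, it was 0.651 and 0.429.

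With libraries weighted by quality, *A330076H08Rik* in ATRX CT tumors passed the threshold (log2 difference −1.24, adjusted p = 0.00635 in limma), and with all 4 groups in 1 fit its adjusted p was 0.0497, within a range from 0.00635 to 0.258 over the alternatives that kept all tumors. Under the same weights, the adjusted p was 0.0171 for *A230057D06Rik* (range 0.0171 to 0.316) and 0.0438 for *Ndn* (range 0.0438 to 0.280) in ATRX CT tumors, and 0.0288 for *Ndn* (range 0.0288 to 0.260) in ATRX KD tumors, all in limma. Hosts differ in strain and immune status, and Y-linked *Eif2s3y* was at 5.64 to 14.4 FPKM in all 10 NSG tumors and at 0 in all 8 Balb/c tumors, although the methods give female mice for both. Of the marker lists, limma called 4 of 5 T cell markers higher in Balb/c than in NSG mice in each arm. In ATRX CT tumors, it also called *Pecam1* and *Tubb3* higher and *Dpt*, of the fibroblast and pericyte list, lower, where 1.43% of all genes were called. All these features cannot be told apart in the host comparison, and their part in the member values was not tested.

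The rest of the region was then examined, from *Tubgcp5* to *Fan1*. The deposited annotation places 54 genes there, and 25 genes other than the 6 members were in the matrix. Of these, 15 had a mean of at least 0.1 FPKM. None was called in any of the 5 comparisons by limma, and none had an adjusted p under 0.05. Before adjustment, limma's p was under 0.05 for 2 genes between ATRX KD and ATRX CT in Balb/c mice and 3 in NSG mice, for 4 and 1 between hosts in the ATRX CT and ATRX KD arms, and for 3 in the host difference of the ATRX KD effect. Over all genes tested, the shares with such a p were 4.14%, 26.3%, 19.3%, 16.4%, and 10.3%, in the same order. The median log2 difference of these region genes between ATRX KD and ATRX CT tumors was −0.14 in Balb/c mice (14 tested) and −0.01 in NSG mice (15 tested), against −0.0032 and −0.0014 over all genes tested. Groups did not overlap for 3 of the 15 genes in Balb/c mice (*Gm7367*, *Trpm1*, and *Mtmr10*, all lower in ATRX KD tumors) and for 1 in NSG mice (*B230209E15Rik*, lower), where 3.18% and 7.50% of all genes tested showed no overlap.

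*B230209E15Rik*, a noncoding transcript on the minus strand from 61529410 to 61615327, is the neighbor of *A230057D06Rik* on the side of *Snrpn*. In NSG mice, it was at 0.109, 0.356, 0.314, 0.0964, and 0.133 FPKM in ATRX CT tumors and at 0.0276, 0.0530, 0.0252, 0.0260, and 0.0445 FPKM in ATRX KD tumors. Its mean in NSG mice was thus 0.202 in ATRX CT against 0.0353 FPKM in ATRX KD tumors. None of the 5 ATRX KD values exceeded its 3-fragment floor. The log2 difference of −0.21 did not pass the threshold (standard error 0.07, adjusted p = 0.0967 in limma). Tumors of Balb/c mice had 0.284, 0.0961, 0.186, and 0.0298 FPKM in ATRX CT and 0, 0, 0.0903, and 0.0882 FPKM in ATRX KD arms. These groups overlapped, and the mean of *B230209E15Rik* was 0.149 against 0.0446 FPKM. Its r with *A330076H08Rik* after group means were subtracted was −0.49, and −0.11 without the 2 tumors farthest from the median, so the value rests on those tumors.

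The paternally expressed genes beyond *Ndn* had overlapping groups. *Mkrn3* was between 1.17 and 3.57 FPKM over the 18 tumors, with log2 differences between ATRX KD and ATRX CT of 0.01 (standard error 0.16, adjusted p = 0.999 in limma) in Balb/c and −0.24 (standard error 0.16, adjusted p = 0.360 in limma) in NSG mice. *Peg12*, a gene of the FRAT family of Wnt signaling, was between 2.11 and 11.7 FPKM, with differences of 0.18 (standard error 0.38, adjusted p = 0.999 in limma) and 0.33 (standard error 0.12, adjusted p = 0.115 in limma). *Magel2*, a MAGE gene next to *Ndn*, did not exceed 0.0282 FPKM. *Atp10a*, the phospholipid flippase gene on the other side of *Ube3a*, was between 6.29 and 17.6 FPKM, with differences of −0.27 (standard error 0.19, adjusted p = 0.999 in limma) and 0.47 (standard error 0.16, adjusted p = 0.0969 in limma). Of the flanking genes, *Cyfip1*, a regulator of actin and translation, had 34.1 to 54.1 FPKM, the magnesium transporter genes *Nipa2* and *Nipa1* had 28.3 to 47.3 and 7.45 to 13.7 FPKM, and *Tubgcp5* had 9.29 to 13.2 FPKM. *Herc2* (7.75 to 28.2 FPKM), *Klf13* (9.51 to 29.5 FPKM), *Mtmr10* (21.1 to 41.9 FPKM), and *Fan1* (1.72 to 3.32 FPKM) were also expressed in every tumor. *A230056P14Rik* (0.325 to 1.76 FPKM), *Gm7367* (0.0530 to 0.459 FPKM), *Trpm1* (0.163 to 0.363 FPKM), and *Snurf* (0.0282 to 0.174 FPKM) were low.

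**Figure D5:**
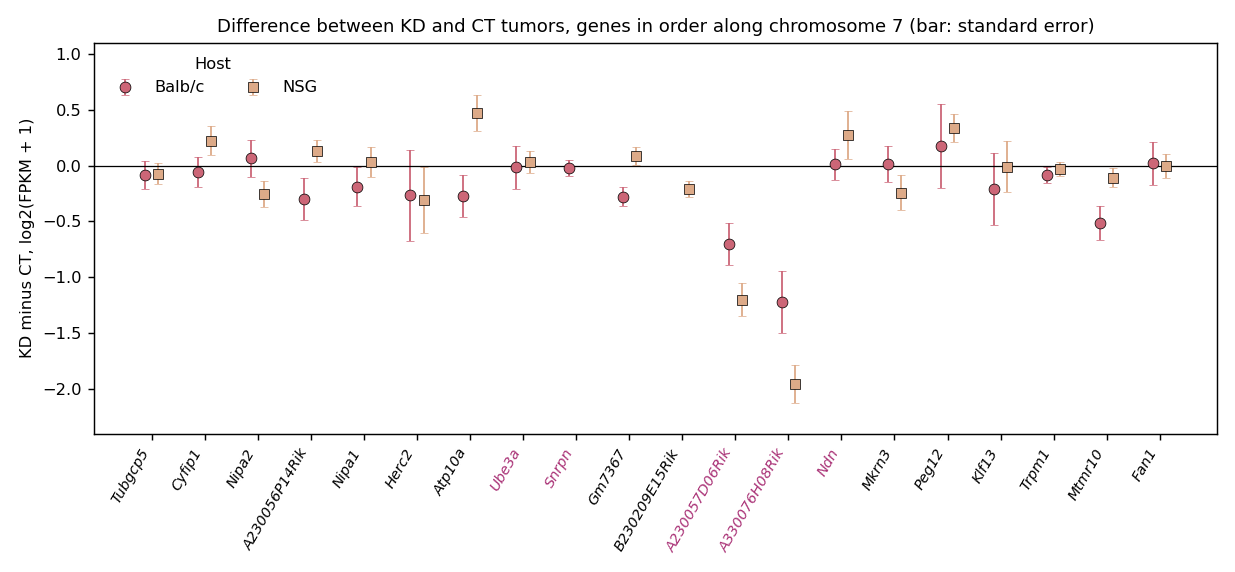
Difference between ATRX KD and ATRX CT tumors in log2(FPKM + 1), with its standard error, for genes of the region averaging 0.1 FPKM or more, in their order along chromosome 7 (circles, Balb/c; squares, NSG; members colored, and a gene under the filter in a host has no point there). On this scale, *A230057D06Rik* (−0.70 and −1.20) and *A330076H08Rik* (−1.22 and −1.96) lie below their neighbors on both sides. A change at low FPKM reads smaller here than it is. This holds for the neighbor *B230209E15Rik*, which has no point in Balb/c and a mean of 0.202 in ATRX CT against 0.0353 FPKM in ATRX KD tumors of NSG mice.

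Genes that work with the products of the region were read from fixed lists. The 7 Sm core genes, whose proteins form the ring that SmN can join, were all expressed, led by *Snrpe* (153 to 411 FPKM) and *Snrpb* (165 to 275 FPKM), and none passed the test in any comparison. Of the 9 genes of the SMN complex, which loads this ring, *Gemin4* rose in ATRX KD tumors of NSG mice (log2 difference 0.60, standard error 0.12, adjusted p = 0.0192 in limma) under a fold change of 2. Of the MAGE family, to which necdin belongs, 5 of 7 genes in the matrix were tested and none passed, with *Maged1* the highest (30.3 to 66.8 FPKM). None of the 10 *Ube3a* partners passed, among them the conjugating enzymes *Ube2d3* (130 to 254 FPKM) and *Ube2l3* (60.7 to 89.3 FPKM). Of the 13 genes for the upkeep of imprints, 12 were tested, and *Uhrf1*, which guides maintenance methylation, rose in ATRX KD tumors of NSG mice (log2 difference 0.65, standard error 0.16, adjusted p = 0.0368 in limma), also under a fold change of 2. Over all genes tested in NSG mice, 6.78% had an adjusted p under 0.05 at any fold. *Zfp57*, a zinc finger protein that protects imprints, was expressed at 3.28 to 10.1 FPKM, and *Trim28*, its corepressor, at 74.5 to 137 FPKM. Median log2 differences of these lists in NSG mice were −0.01 (Sm core), 0.12 (SMN complex), 0.13 (MAGE family), 0.07 (*Ube3a* partners), and 0.16 (upkeep of imprints), against −0.0014 over all genes tested. In Balb/c mice, they were 0.06, 0.07, 0.10, −0.12, and −0.04, against −0.0032 over all genes tested, and no gene of these lists passed in limma or had an unadjusted p under 0.05. Over all genes tested in Balb/c mice, 4.14% had such an unadjusted p.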

How the data were processed

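RNA of 18 tumors was sequenced after ribosomal depletion and stranded library preparation. Per the methods, the authors ran STAR 2.6.0c on mm10, removed low-quality and duplicated reads, and quantified RefSeq genes without miRNA with Cufflinks 2.2.1. Deposited values are log2 (FPKM + 1), in a matrix of 20970 entries with 92 spike-ins. Base 2 was settled from the values, since FPKM times length then summed to 1.06 to 1.09 times the known total, whereas base e gave 8.09 to 10.8 times. The deposited annotation gave the coordinates. Fragments were estimated from the steps of low FPKM values (fragment length 160 nt). Between 33.0% and 39.1% of values lay within 0.1 of a whole fragment, so no count test was run, although the submitters' own comparison used DESeq. Each depth was the value that best fitted whole fragments, so this share does not test it, and depths and floors are approximate. Floors are 3 fragments and cover counting error only.

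Tumors were grouped by their labels. Groups were compared in R 4.3.3 with limma 3.58.1 (lmFit, eBayes with trend) on log2 (FPKM + 1), for genes averaging 0.1 FPKM or more over the tumors fitted, with Benjamini-Hochberg adjustment over all genes tested. A gene was called when its fold change was 2 or more at an adjusted p under 0.05. Comparisons were ATRX KD against ATRX CT in each host, Balb/c against NSG in each arm, and the interaction. Host values of members also had two-sided exact permutation tests over 126 arrangements of tumors. The steps were tested on simulated data. The tumor labels give separate mice.

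The members and lists were chosen with earlier results of these data known. Named genes are the 6 members, *Atrx*, the region's genes averaging 0.1 FPKM or more (others are counted), list genes that passed or the 2 highest, and the 3 genes most like each member by Pearson's r after group means were subtracted. *Magel2*, *C230091D08Rik*, *Eif2s3y*, *Zfp57*, *Trim28*, and single marker genes (*Pecam1* and *Csf1r* among them) were named outside this rule, after their values were seen. The sum of *Snrpn* and *Snurf* was added as an alternative after seeing the data. Python 3.11.15 read the files, and matplotlib 3.10.9 drew the figures. Promoters and miRNAs came from RefSeq tables for GRCm38.p6, matched by symbol for 6 of 6 members, and shared 75 nt windows were counted in GENCODE transcripts.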

Additional observations from a re-analysis of the deposited data

Results flagged for a closer look

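Of 24 groups of tumors (6 members in 4 groups), 2 held a tumor far from the others of its group, where chance gives about 1.2. In mouse 43 (Balb/c, ATRX CT), *Ndn* was at 0.560 FPKM, against 0.178 to 0.229 FPKM in the other ATRX CT tumors of this host. In mouse 44 (Balb/c, ATRX CT), *Snhg14* was at 0 FPKM, against 0.0285 to 0.0336 FPKM in the others, and all of these values do not exceed the 3-fragment floor.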

How the results depend on the processing

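No paired analysis was possible because mouse numbers are not shared between groups. Counts of members called in any comparison, also between hosts, may have been fixed by their choice and say nothing of stability. With a filter of a mean of at least 1 FPKM, 1 member was called in NSG mice, since *A230057D06Rik* then fell under the filter. With libraries weighted by quality and a robust prior, 1 member was called between hosts in ATRX CT tumors (*A330076H08Rik*), where 299 of 14828 genes were called, and 1 member for the host difference of the ATRX KD effect, where 195 of 14803 genes were called against 0 without weights in limma (1527 at an unadjusted p under 0.05). Under these weights, 1 other gene of the region, *Peg12*, was called between hosts in ATRX KD tumors (log2 difference −1.35, adjusted p = 0.00217 in limma), among 266 of 14669 genes. Differences between hosts that changed sign were those of *Ube3a* in ATRX CT tumors with the trend along transcript length removed (−0.0057), of *A330076H08Rik* in ATRX KD tumors with quality weights (0.060), of *Snrpn* in ATRX KD tumors without mouse 30 (0.0040, with 1 tumor omitted at a time −0.040 to 0.0040), and of *Ube3a* in ATRX KD tumors with quality weights (−0.13) and without mouse 56 (−0.064, within −0.064 to 0.19). The cause was not tested. With each tumor left out in turn, no gene of the region outside the members was called, and the log2 difference of *A330076H08Rik* lay between −1.43 and −1.01 in Balb/c and between −2.12 and −1.84 in NSG mice. Over all genes, the calls of the ATRX KD comparison ran from 0 to 15 in Balb/c and from 52 to 226 in NSG mice over the settings that kept all tumors. Depth limits *Snrpn*, *Snhg14*, and the ATRX KD values of the Rik pair.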
